A study of Mus musculus with 10 samples.

Results

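The numbered Zfp genes are mouse genes named for zinc finger proteins. The 235 described here were chosen by name, Zfp followed by digits only and Zfp36 left out, and by a mean of at least 1 FPKM over 10 libraries of mouse B cells. They are 235 of 323 numbered Zfp rows and of 17658 rows in the table. FPKM scales the fragments of a gene to transcript length and to the mapped fragments of the library, so levels of different genes can be compared per length. The libraries came from B cells of 10-week-old C57BL/6 mice, taken from spleen and lymph node and enriched by magnetic removal of other cells. Wild-type animals were Nr4a1+/+, and the other genotype was labelled Nr4a1-/-, for the gene of the nuclear receptor Nur77. For each genotype there was 1 unstimulated library and 4 libraries from cells given 10 µg/mL anti-IgM, which crosslinks the antigen receptor, for 2 hours. The design asked which inducible genes differ between the genotypes. Neither the construction of the knockout allele nor the cells that carry it is described in the labels, and whether the letters A to D stand for separate mice is not given there. The p-values below therefore measure the spread between libraries, which may be technical.

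Most Zfp proteins carry zinc fingers of the C2H2 kind, small domains in which a pair of cysteines and a pair of histidines hold a zinc ion, and which can read DNA bases or bind RNA. Many also carry a KRAB domain, which recruits the corepressor Trim28 (KAP1) and with it histone methylation and deacetylation. KRAB zinc finger genes lie in large clusters of recent duplicates, and many of their proteins silence retroelements. Others without that domain act as promoter factors, or in RNA processing, ribosome assembly and chromosome segregation.

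Among the rows, Zfp52 and Zfp948 are neighbours on chromosome 17 that stood at 35.2% and 39.9% of the wild-type mean in the stimulated libraries labelled knockout. Their promoters are shown with that of the neighbour Zfp53, whose genotype difference did not pass the test. The RefSeq promoter table gives 1 window per gene for these 3, from 250 bases before to 50 after a transcript start. That start lies inside the gene's annotated span, by 1814 bases for Zfp52, 1162 for Zfp948 and 54 for Zfp53. A base of the Zfp52 sequence is in capitals where it lies in any 10-base word found in the Zfp948 promoter, and a base of the other 2 sequences where it lies in any such word of the Zfp52 promoter. Adjoining words can come from different places, so a stretch of capitals can be longer than any single shared run. The longest single run that Zfp52 shares with Zfp948 is 13 bases, and with Zfp53 it is 16. The windows are chr17:21535289-21535588 for Zfp52, chr17:21566728-21567027 for Zfp948 and chr17:21488738-21489037 for Zfp53, all on the plus strand of GRCm38.p6.
Zfp52: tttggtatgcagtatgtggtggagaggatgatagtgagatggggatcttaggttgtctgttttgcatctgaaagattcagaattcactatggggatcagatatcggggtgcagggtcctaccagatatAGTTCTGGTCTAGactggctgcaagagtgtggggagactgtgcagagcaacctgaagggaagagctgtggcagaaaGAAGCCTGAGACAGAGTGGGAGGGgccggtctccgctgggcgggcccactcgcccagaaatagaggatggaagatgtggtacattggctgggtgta
Zfp948: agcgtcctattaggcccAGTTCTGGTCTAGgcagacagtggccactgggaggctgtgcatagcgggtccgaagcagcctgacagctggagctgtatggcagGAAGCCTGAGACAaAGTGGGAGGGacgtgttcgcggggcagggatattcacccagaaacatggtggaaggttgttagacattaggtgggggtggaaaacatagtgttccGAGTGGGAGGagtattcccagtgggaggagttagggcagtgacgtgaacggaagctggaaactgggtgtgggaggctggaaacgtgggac
Zfp53: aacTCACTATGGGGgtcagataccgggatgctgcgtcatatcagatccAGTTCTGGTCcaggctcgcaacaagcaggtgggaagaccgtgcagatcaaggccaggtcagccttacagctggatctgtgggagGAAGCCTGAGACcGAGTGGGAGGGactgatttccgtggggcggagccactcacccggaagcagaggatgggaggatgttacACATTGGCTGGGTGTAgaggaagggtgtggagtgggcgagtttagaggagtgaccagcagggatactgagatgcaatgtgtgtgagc
The best local alignment of the Zfp52 and Zfp948 promoters spanned 200 columns, of which 133 (66.5%) were identical. That of Zfp52 and Zfp53 spanned 232 columns with 171 identical (73.7%). Of the other 32850 promoters in the RefSeq table, 6 aligned with Zfp52 at least as well as Zfp948 did, itself included, and these belonged to Zfp53, Zfp54, Gm10509, Zfp983 and Zfp948, with Zfp54 listed under 2 promoters. The promoters most like that of Zfp52 thus included those of Zfp53 and Zfp54. The genotype difference of neither gene passed the test. Both had lower stimulated means in the libraries labelled knockout, at 76.1% and 80.1% of wild type. For Zfp54, with a mean of 1.267 FPKM, the 4 and 4 stimulated libraries did not overlap. The response element of Nr4a receptors, called NBRE, was searched as AAAGGTCA on both strands and was in none of the 245 promoters listed for 198 of the 235 genes, against 1.51% of all 32851 promoters. The Egr motif GCGTGGGCG was in 1 of the 245, that of Zfp507, against 0.612% of all promoters. The cyclic AMP element TGACGTCA was in 9 of them (3.67%), against 1.79% of all. Such a match or its lack describes these 300 bases only.

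Before any result, Nr4a1 itself was compared with the labels. Unstimulated, it was at 126.43 FPKM in wild type and 125.58 under the knockout label. After stimulation it was at 806.45, 744.23, 825.5 and 856.1 FPKM in wild type and at 713.23, 674.79, 759.96 and 660.23 in the libraries labelled knockout. The stimulated mean under the knockout label was 86.9% of the wild-type mean (adjusted p = 0.0432 by limma), with libraries that overlap. The value per gene therefore shows a small decrease and not a loss of the transcript, and the genotype is named below as the label gives it. Summed B cell markers are given with the stimulation results, and 7 T cell markers summed to 0.87 to 1.92 FPKM. Summed FPKM over all rows was 674961 and 595500 in the unstimulated libraries, labelled wild type and knockout, and 557214 to 571784 in the stimulated ones. Absolute depth cannot be read from FPKM, so the spread between libraries is the measure of precision here. Over the 8 stimulated libraries the within-genotype SD of log2(FPKM + 1) had a median of 0.086 over the Zfp genes and 0.075 over all 10225 rows with a mean of at least 1 FPKM. In bulk RNA, fewer cells of a type and less RNA per cell cannot be told apart.

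Most Zfp genes were expressed at a low level. Their median mean was 6.81 FPKM, against 13.98 for all tested rows, with 98 under 5 FPKM and 30 above 20. Together they held 0.385% to 0.461% of the summed FPKM of a library. The remaining 88 numbered Zfp rows fell under the minimum, none of them at 0 in every library. Just below it were Zfp316 with a mean of 0.96 FPKM and Zfp772 with 0.958, and just above it Zfp3 with 1.035 and Zfp418 with 1.058.

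The highest mean belonged to Zfp207, also called BuGZ, a partner of the spindle checkpoint protein Bub3. Its level was 104.7 and 87.98 FPKM unstimulated, labelled wild type and knockout, and after stimulation its mean was 98.8 ± 2.37 and 98.7 ± 3.21 (SD, n = 4 each). Next came Zfp106, an RNA-binding protein, with 45.06 and 54.90 FPKM unstimulated and 78.3 ± 2.46 and 79.7 ± 1.79 (SD, n = 4 each) stimulated. The order went on with Zfp146, Zfp62, Zfp330, a nucleolar protein, and Zfp259, known as ZPR1, at means of 54.3, 45.7, 42.3 and 40.1 FPKM. Zfp330 and Zfp259 lie closer together than the range of either over the libraries. No KRAB-like match was found in these 6, and the stimulated genotype difference passed the test in Zfp62 alone.

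After 2 hours of anti-IgM the Zfp genes moved mostly down. A gene is called here when limma gave a Benjamini-Hochberg adjusted p under 0.05 over all tested rows and the log2(FPKM + 1) values moved by 1 or more in either direction. By that rule 39 Zfp genes were lower (16.6%), against 12.4% of all tested rows, and 1 was higher, against 7.94% of all. Low rows were called lower more often, and Zfp genes were mostly low. From 1 to 5 FPKM 19.4% of 98 Zfp genes were called lower, against 17.4% of all rows in that range. From 5 to 20 FPKM 18.7% of 107 were, against 14.4%. Above 20 FPKM 0% of 30 were, against 7.61%. The excess over all rows was thus absent above 20 FPKM, and level was not adjusted for in the overall shares. With the adjusted p alone 158 were lower and 34 higher, where the shares over all tested rows were 47.7% and 31.2%. The median log2 change was -0.41, against -0.17 over all tested rows, and the median ratio of stimulated to unstimulated FPKM was 71.9%, against 87.1%. In 144 genes all 8 stimulated libraries were below both unstimulated ones, and in 33 all 8 were above, where 44.3% and 28.6% of all tested rows had these properties. The minimum over 10 libraries let in 11 genes with a stimulated mean under 1 FPKM and none with an unstimulated mean under 1, so these counts describe the genes that passed and not every Zfp row. The share called lower, set against all rows, changed with the settings. With a common sum per library 32 were lower and 4 higher (13.6% lower, against 10.5% of all rows), and with median-of-ratios scaling 23 and 4 (9.79%, against 7.83%). With quantile normalization 17 were lower and 5 higher, and the share lower, 7.23%, was below the 9.01% of all rows. With a pseudocount of 5 it was also below, 3.40% against 5.85%. That pseudocount shrinks the log2 change of low genes, and the Zfp median there was below that of all rows by 0.14. The Zfp median stayed below that of all rows under these 3 scalings, by 0.25, 0.24 and 0.14.

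**Figure D1:**
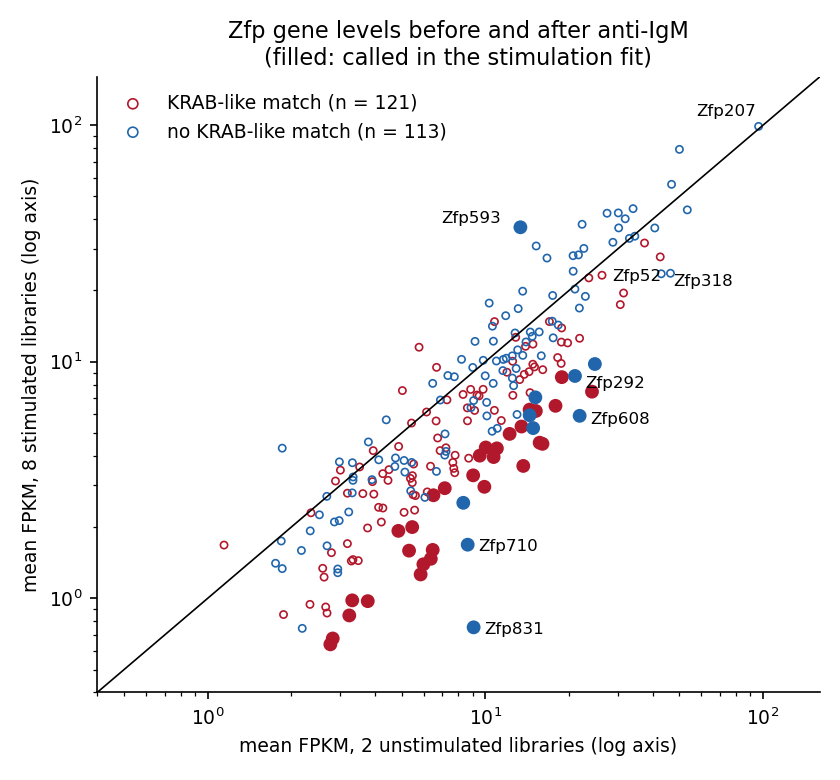
Mean FPKM of each Zfp gene in the 2 unstimulated libraries (x axis, log scale) and in the 8 stimulated libraries (y axis, log scale), coloured by whether a KRAB-like sequence was found. The line marks equal levels. The 40 filled points are the called genes, 39 below the line and Zfp593 above it, and 1 gene without a class is not drawn.

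The sums of B cell and plasma cell markers stood apart between unstimulated and stimulated libraries, and those of erythroid and myeloid markers overlapped. Summed B cell markers (8 genes) were 4358.36 and 4148.69 FPKM in the unstimulated libraries labelled wild type and knockout, and 1598.3 to 1713.33 in the stimulated ones, with 6 of the 8 called lower. Summed plasma cell markers (6 genes) were 201.13 and 205.45 FPKM unstimulated and 1046.44 to 1190.74 stimulated, with 2 called higher and 1 lower. The 5 tested plasma cell markers had a median mean of 28.2 FPKM and an upper quartile of 39.6. That sum therefore rested mostly on its highest gene, and their median log2 change was 0.33. Summed erythroid markers (5 of 6 genes in the table) were 122.59 and 39.91 FPKM unstimulated and 7.79 to 66.43 stimulated. Summed myeloid markers (8 genes) were 76.91 and 92.46 FPKM unstimulated and 24.66 to 140.93 stimulated. None of these genes was at 0 in all libraries. Their part in the Zfp changes was not tested.

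On the log2 scale the falls were steepest in Zfp831 and Zfp710. Zfp831 went from 8.08 and 10.06 FPKM in the unstimulated libraries to 0.72, 0.67, 0.86 and 0.85 in stimulated wild type and to 0.90, 0.78, 0.72 and 0.53 in those labelled knockout. Every stimulated library was far below both unstimulated ones, and the genotypes overlapped. The log2 change was -2.52 (SE 0.107, adjusted p = 2.61e-09 by limma). Zfp710 went from 7.08 and 10.19 FPKM to 1.41 to 1.83 in wild type and 1.37 to 1.94 under the knockout label, with a log2 change of -1.83 (SE 0.115, adjusted p = 5.69e-08 by limma). Its stimulated libraries also stood clear of the unstimulated pair, with overlapping genotypes.

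Zfp608, a chromatin-associated protein related to Zfp609, was at 20.47 and 23.23 FPKM unstimulated and averaged 6.15 ± 0.414 and 5.67 ± 0.348 (SD, n = 4 each) after stimulation, wild type first. That is a log2 change of -1.73 (SE 0.078). The next 5 by size were KRAB-like genes, namely Zfp53, Zfp758, Zfp273, Zfp961 and Zfp943, with log2 changes from -1.68 to -1.57. Zfp943 showed the pattern at a higher level, with 26.70 and 21.71 FPKM before and 6.66 to 8.32 after. Zfp273 shared 24.7% of its 50-base words with other genes, so its reads could be split between copies. Apart from Zfp273, which lost its call with a pseudocount of 5, the other 7 of these 8 falls kept it in every alternative tried.

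The sole called rise was that of Zfp593, a factor of the large ribosomal subunit's assembly. It was at 11.85 and 14.89 FPKM unstimulated, at 37.21, 36.84, 37.45 and 37.99 in stimulated wild type and at 36.94, 35.07, 37.82 and 36.72 in stimulated libraries labelled knockout. All 8 stimulated libraries were at least at 35.07 FPKM, and the genotypes overlapped. The log2 change was 1.41 (SE 0.064, adjusted p = 4.35e-09 by limma), a 2.77-fold ratio of FPKM.

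**Figure D2:**
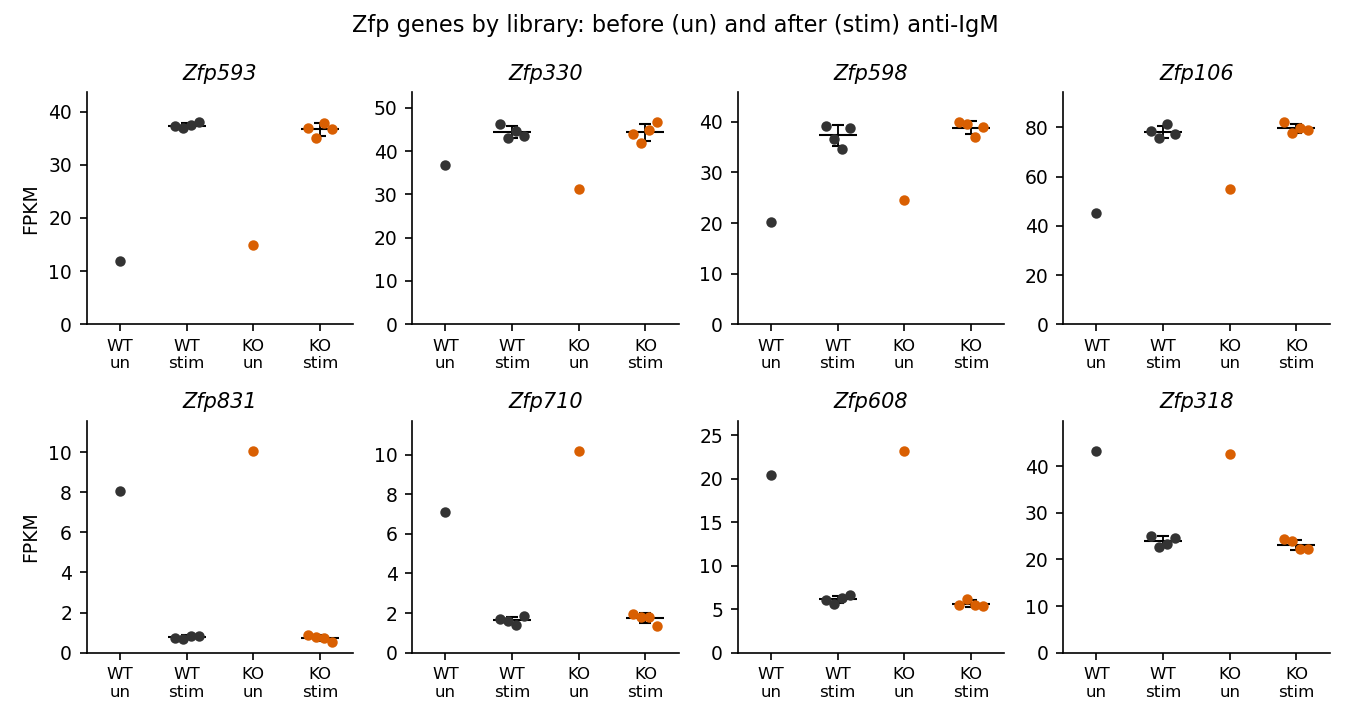
FPKM of 8 Zfp genes in every library (points), by genotype label and treatment, with the mean and SD of each group of 4 stimulated libraries (black bars). The upper 4 genes are higher in all stimulated libraries than in both unstimulated ones, the lower 4 are lower, and the genotypes overlap in each.

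Of the 39 called falls 30 were in genes with a KRAB-like sequence. Such a sequence was found in 121 of the 234 proteins that could be translated from GENCODE transcripts. Of these 121 genes, 30 were called lower (24.8%, against 12.4% of all tested rows) and 0 higher, and with the adjusted p alone 101 were lower and 5 higher. Among the 113 without a match, 9 were called lower (7.96%) and 1 higher, and with the adjusted p alone 57 were lower and 28 higher. The median log2 change was -0.66 with a match and -0.19 without, the latter close to that of all tested rows. With quantile normalization the share called lower was 8.26% of KRAB-like genes, below the 9.01% of all rows, and with a pseudocount of 5 it was 3.31%, against 3.54% without a match and 5.85% of all rows. With median-of-ratios scaling it was 14%, against 7.83% of all rows. The KRAB-like median lay below that of all rows by 0.50 with median-of-ratios scaling, by 0.39 with quantile normalization and by 0.55 with a common sum per library. The median of genes without a match turned positive under the first 2 of these scalings, at 0.01 and 0.06. With a pseudocount of 5 the KRAB-like median was below that of all rows by 0.28.

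KRAB-like genes were also the lower expressed class, with a median mean of 4.87 FPKM against 9.32, so the classes were set side by side within ranges of level. From 1 to 5 FPKM the median log2 change was -0.79 for 62 KRAB-like genes, -0.31 for 36 without a match and -0.45 for all tested rows in that range. From 5 to 20 FPKM the medians were -0.60 for 53 KRAB-like genes, -0.21 for 53 without a match and -0.26 for all rows. Above 20 FPKM the 6 KRAB-like genes had a median of -0.42 and the 24 without a match one of 0.30, with 0.16 for all rows. Level and class thus both went with the change, and within each range the KRAB-like genes had the lower median.

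By the spacing searched, the proteins held a median of 10 fingers and at most 33, with 21 proteins under 2. The median was 12 fingers in KRAB-like proteins and 7 in those without a match, and 83 of the 121 KRAB-like proteins had 11 or more, against 27 of 113. The search misses fingers whose cysteines are spaced otherwise, as in Zfp143 and Zfp410. Genes with 0 or 1 finger had a median log2 change of -0.13 (n = 21), those with 2 to 5 of -0.21 (n = 33), those with 6 to 10 of -0.31 (n = 70), those with 11 to 15 of -0.64 (n = 69) and those with 16 or more of -0.47 (n = 41). The medians are thus lowest in proteins with 11 to 15 fingers, without a steady order above that. Other zinc finger families, grouped by name, gave medians of 0.03 for 37 Zbtb genes, -0.43 for 14 Zscan and Zkscan genes and -0.37 for 18 Zfp genes with a letter in the name. No test was made between these families.

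**Figure D3:**
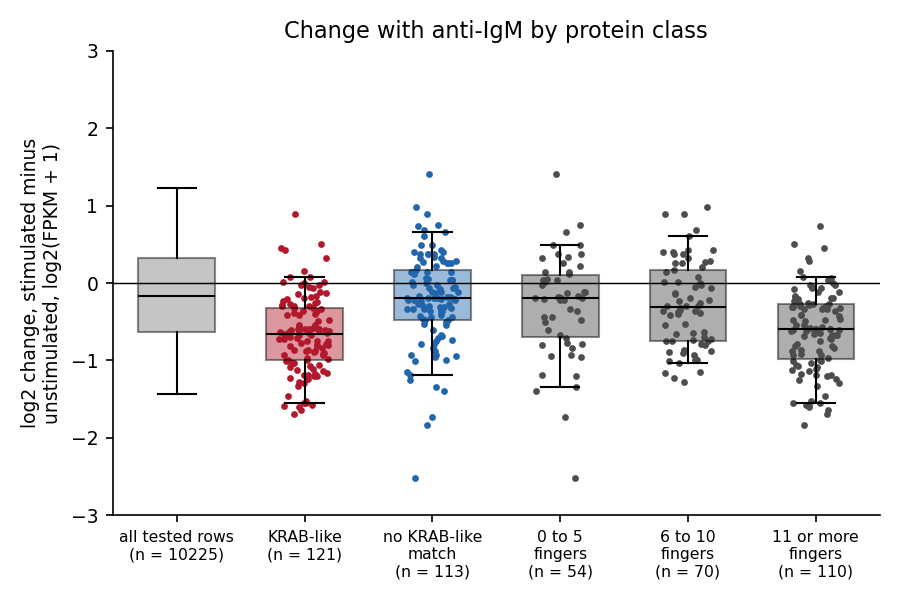
Log2 change with anti-IgM on the log2(FPKM + 1) scale for all tested rows and for Zfp genes by class and by number of fingers. Boxes span the quartiles with the median, whiskers reach the 5th and 95th percentiles, and points are single Zfp genes. The box of KRAB-like genes lies lower than that of genes without a match, around medians of -0.66 and -0.19.

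The genes of proteins that KRAB domains work with went both up and down. Of 21 genes of the corepressor complex, all tested, 3 were called higher with stimulation and 2 lower, against 7.94% and 12.4% of all tested rows. With the adjusted p alone 8 were higher and 8 lower, against 31.2% and 47.7%. Trim28, the corepressor itself, was at 50.77 and 73.66 FPKM unstimulated and at 88.03 to 96.64 in the 8 stimulated libraries. Chd4, a remodeller of the NuRD complex, had a log2 change of 1.2, and Chd3 and Rbbp7 were called higher as well. Cbx3, which reads methylated histone H3, and Atf7ip, a partner of the methyltransferase Setdb1, were the called falls, with log2 changes of -1.16 and -1.2. Between genotypes 1 of the 21 was called, against 9.72% of all tested rows, the deacetylase gene Hdac1, at 74.25 to 77.35 FPKM in stimulated wild type and 90.41 to 93.72 in the libraries labelled knockout.

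A list of 11 Zfp genes had roles in RNA metabolism, translation or chromosome segregation. Of these Zfp638 was not analysed here, Zfp473 lay under the minimum, and 9 were tested. By the adjusted p alone 5 rose and 2 fell, and Zfp593 was the 1 called, where 31.2% of all tested rows rose and 47.7% fell. Zfp598, the ubiquitin ligase of collided ribosomes, was at 20.11 and 24.49 FPKM unstimulated, and after stimulation averaged 37.3 ± 2.06 and 38.9 ± 1.27 (SD, n = 4 each), wild type first. Zfp622, which acts late in assembly of the large ribosomal subunit, rose by a log2 change of 0.37, and Zfp346, which binds double-stranded RNA, by 0.33. Zfp106 and Zfp593, given above, were the other rises.

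Zfp318, which mature B cells need for surface IgD because it lets transcription run on from the IgM to the IgD exons, was among those that fell. It stood at 43.31 and 42.65 FPKM unstimulated. After stimulation it was at 24.96, 22.66, 23.25 and 24.64 FPKM in wild type and at 24.31, 23.91, 22.30 and 22.24 in the libraries labelled knockout. The unstimulated libraries nearly coincided, the 8 stimulated ones were all lower, and the genotypes overlapped. Its log2 change was -0.84 (SE 0.051, adjusted p = 4.35e-08 by limma), short of the size needed for a call. Zfp326, a subunit of a complex that links splicing to the polymerase, fell by 0.22 on the log2 scale. Zfp207 and Zfp830 gave adjusted p = 0.503 and 0.523 by limma.

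All 13 promoter and enhancer factors on the list were tested, and 3 rose and 8 fell by the adjusted p alone, against 31.2% and 47.7% of all tested rows. Zfp608 and Zfp292 were called lower, and Zfp292 went from 22.60 and 19.44 FPKM to means of 9.07 ± 0.256 and 8.34 ± 0.9 (SD, n = 4 each), again wild type first. Zfp217, a corepressor subunit, fell by 0.99 on the log2 scale. Zfp281, a factor of GC-rich promoters, rose with a log2 change of 0.50, Zfp131 with 0.33 and Zfp384 with 0.15. Smaller falls, between 0.17 and 0.42 in size, were those of Zfp143, a promoter factor of small nuclear RNA genes, and of Zfp148, Zfp410, an activator of Chd4, Zfp335 and Zfp687. Zfp91 and Zfp609 gave adjusted p = 0.849 and 0.104 by limma.

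Among KRAB zinc finger genes known from silencing of retroelements or imprinted loci, 6 of 7 were tested (Zfp57 lay under the minimum) and 1 rose and 4 fell by the adjusted p alone, against 31.2% and 47.7% of all tested rows. Zfp961 was the called fall, from 16.97 and 14.39 FPKM to 4.27 to 5.03 in the stimulated libraries. Zfp445, an imprint protector, had 38.13 and 36.71 FPKM unstimulated and 29.77 to 33.73 after stimulation. Zfp568, a repressor of a placental Igf2 promoter, rose from 6.20 and 7.14 FPKM to 9.09 to 10.00. Zfp708 fell by 0.29 on the log2 scale, but all its 50-base words occur in other genes as well, so its value is uncertain. Zfp932, with 45.3% of such words shared, gave adjusted p = 0.633 by limma, and Zfp809 is described below.

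Between the genotypes the Zfp genes differed little. After stimulation 12 were called lower in the libraries labelled knockout (limma, adjusted p under 0.05), against 5.81% of all tested rows, and 1 higher, against 3.91%. These 13 are 5.53% of the Zfp genes, and without Zfp52 and Zfp948, which earlier results of these data had already singled out, 11 remain, 10 of them lower. An unadjusted p under 0.05 was found for 31 Zfp genes and for 2262 of all tested rows. The 4 and 4 libraries did not overlap in 24 Zfp genes (10.2%), where 15.5% of all tested rows had that property. The median log2 difference was -0.03, against -0.02 over all tested rows. Of the 12 lower genes 8 were KRAB-like, which is 6.61% of that class, against 3.54% of genes without a match and 5.81% of all tested rows. In 10 of the 12 the unstimulated library labelled knockout was also the lower one of its pair. Zfp52 and Zfp948 are in both counts. Stimulated means were apart by at least 1.5-fold in 5 Zfp genes, Zfp52 and Zfp948 among them. The share of all tested rows with such a ratio was not counted. In the unstimulated pair, 1 library each, the median log2 difference was -0.16 over KRAB-like genes, 0.11 over those without a match and 0.07 over all tested rows.

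The Zfp52 and Zfp948 values are a description, since both genes were singled out for this contrast. Zfp52 was at 33.51, 37.74, 34.53 and 31.54 FPKM in stimulated wild type and at 13.17, 11.76, 10.45 and 12.92 in the stimulated libraries labelled knockout. Without stimulation wild type had 40.50 FPKM and the library labelled knockout 12.10. The 5 libraries labelled knockout were all below the 5 of wild type, at 35.2% of the wild-type mean after stimulation and at 29.9% before. Stimulation itself changed Zfp52 by -0.12 on the log2 scale (SE 0.089, adjusted p = 0.228 by limma).

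Zfp948 was at 9.32, 9.02, 9.52 and 8.63 FPKM in stimulated wild type and at 3.62, 3.48, 3.70 and 3.76 in the libraries labelled knockout, with 12.88 and 4.34 FPKM in the unstimulated pair. Here too every library labelled knockout was below every wild-type one, at 39.9% of the wild-type mean after stimulation and 33.7% before. Both genes encode KRAB-like proteins, with 14 fingers found in Zfp52 and 15 in Zfp948. They shared 0.80% and 0.19% of their 50-base words with other genes.

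**Figure D4:**
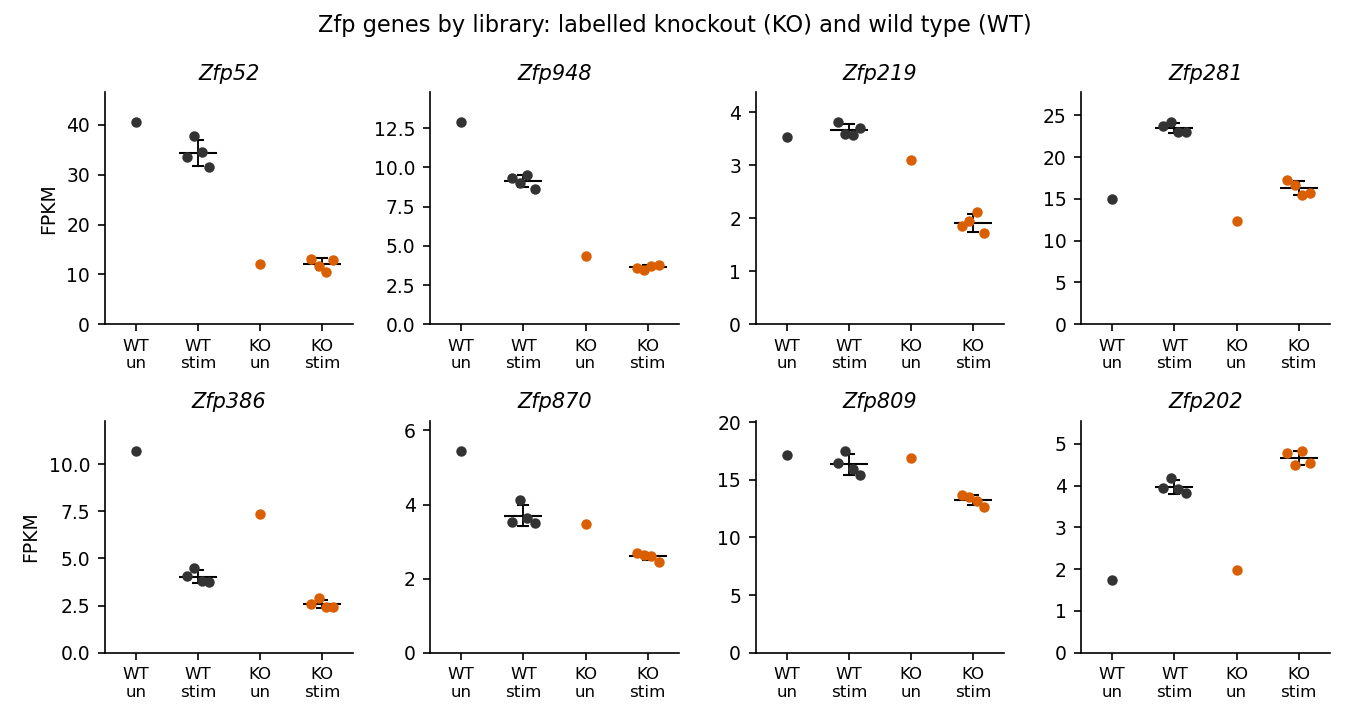
FPKM of 8 Zfp genes called between genotypes in every library (points), with the mean and SD of each group of 4 stimulated libraries (black bars), WT for wild type and KO for libraries labelled knockout. In all 8 genes the stimulated groups do not overlap, and Zfp202 is the one that is higher in the libraries labelled knockout.

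In GRCm38.p6 Zfp52 spans chr17:21533725-21563362 and Zfp948 chr17:21565816-21589324, with 2453 bases between them. On the other side Zfp53 ends 523 bases before Zfp52 starts. Within 1 Mb of the start of Zfp52 the table held 21 rows, 16 with a Zfp name, and 17 were tested, 13 of them among the 235. None of the other 15 tested genes was called between genotypes, where 9.72% of all tested rows were. Zfp52 and Zfp948 passed the same rule, but they had been singled out for this contrast. Zfp53 was at 3.67, 4.13, 4.36 and 4.31 FPKM in stimulated wild type and at 2.24, 4.02, 2.78 and 3.5 in the libraries labelled knockout, groups that overlap (log2 difference -0.33, adjusted p = 0.161 by limma). In the unstimulated pair Zfp53 was at 14.32 FPKM in wild type and 13.06 in the library labelled knockout.

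Across these 17 neighbours 15 had a lower stimulated mean on the log2 scale in the libraries labelled knockout. So had 6247 of all 10225 tested rows and 93 of the 121 KRAB-like genes. In the unstimulated library of that label 16 of the 17 were lower. The median log2 difference of that pair was 0.07 over all tested rows and -0.16 over KRAB-like genes. The counts of 15 and 16 include Zfp52 and Zfp948, and no test was made of them. The next largest stimulated differences after Zfp53 were -0.20 for Zfp51, -0.18 for Zfp677 and -0.15 for Zfp54, whose groups did not overlap. Beyond 100 kb on the far side of Zfp948, Zfp760, Zfp942, Zfp943, Zfp944, Zfp758 and Zfp946 had differences between -0.12 and 0.02. Among the tested rows of this window, 2 adjacent genes thus carried the differences larger than 1 on the log2 scale.

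**Figure D5:**
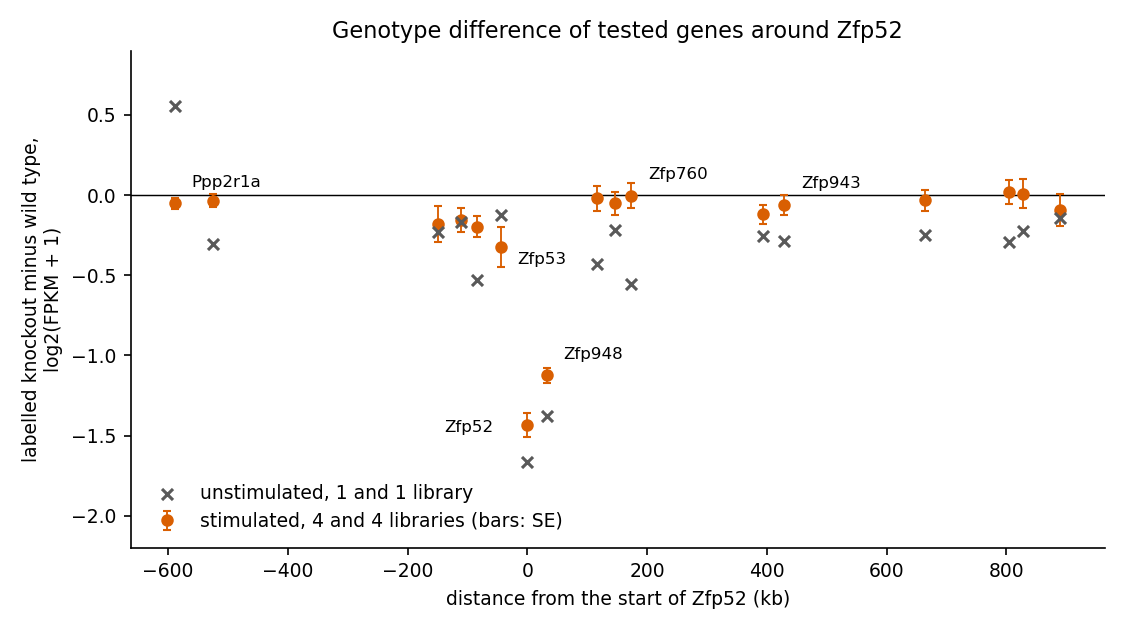
Log2 difference between the libraries labelled knockout and wild type, on the log2(FPKM + 1) scale, of the 17 tested genes within 1 Mb of Zfp52, by distance of their starts from its start. Circles with SE bars are the 4 and 4 stimulated libraries and crosses the 1 and 1 unstimulated libraries. Zfp52 and Zfp948 lie at -1.44 and -1.12 and the others at -0.33 or above.

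Most of the window also fell with anti-IgM. Of its 17 tested genes 10 were called lower, among them Zfp53, Zfp760, Zfp943 and Zfp758, while Zfp52 and Zfp948 were not. Zfp948 did fall, with a log2 change of -0.33 (adjusted p = 9.93e-04 by limma), short of the size needed for a call. Over chromosome 17 as a whole, this window included, 11 of 29 Zfp genes (37.9%) were called lower, against 16.8% of all its tested rows. The median log2 change was -0.79 for the 29 genes and -0.21 for all tested rows of that chromosome. Of those 29 genes 24 were KRAB-like, and 13 lay in the window, Zfp53, Zfp760, Zfp943 and Zfp758 among them. On chromosome 7, which held 59 Zfp genes, 10.2% were called lower, with a median of -0.32, against 15% and -0.25 for all tested rows there. No Zfp gene other than Zfp740, with adjusted p = 0.464 by limma, lay within 10 Mb of Nr4a1 on chromosome 15.

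Away from that cluster the largest called genotype differences were those of Zfp219 and Zfp281, factors without a KRAB-like match. Zfp219, a transcriptional regulator, was at 3.81, 3.59, 3.57 and 3.71 FPKM in stimulated wild type and at 1.85, 1.95, 2.11 and 1.73 in the libraries labelled knockout. The groups stood well apart, with 3.54 and 3.09 FPKM in the unstimulated pair. Its log2 difference was -0.68 (SE 0.060, adjusted p = 1.14e-04 by limma), and its stimulated mean was 52% of wild type, against 87.3% in the unstimulated pair.

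Zfp281 was at 23.70, 24.15, 23.04 and 22.95 FPKM in stimulated wild type and at 17.28, 16.68, 15.43 and 15.70 in the libraries labelled knockout. The unstimulated pair had 14.94 and 12.31 FPKM. Both genotypes were thus higher after anti-IgM, and every stimulated wild-type library was above every one labelled knockout. The log2 difference was -0.50 (SE 0.041, adjusted p = 7.23e-05 by limma).

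Of KRAB-like genes elsewhere, Zfp386 averaged 4.03 ± 0.338 FPKM in stimulated wild type and 2.59 ± 0.218 under the knockout label (SD, n = 4 each), with 10.71 and 7.36 unstimulated. It was called in both fits, falling with stimulation by 1.22 on the log2 scale and differing between genotypes by -0.49. Zfp870 was at 3.70 ± 0.278 and 2.60 ± 0.102 FPKM (SD, n = 4 each), with 5.45 and 3.47 in the unstimulated pair. Zfp809, which silences retroviruses through their primer binding site, was at 16.41, 17.51, 15.97 and 15.40 FPKM in stimulated wild type and 13.68, 13.47, 13.18 and 12.62 in the libraries labelled knockout. The unstimulated pair of Zfp809 nearly coincided, at 17.11 and 16.90 FPKM, and the stimulated groups did not overlap (log2 difference -0.28, SE 0.045, adjusted p = 0.00383 by limma).

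The other calls were weaker. Zfp827, Zfp949, Zfp46, Zfp709 and Zfp62 had log2 differences from -0.44 to -0.15, and Zfp202, the sole rise, one of 0.19. Each of these 6 lost its call in at least 5 of the alternatives tried, and Zfp949 passed only just, with an adjusted p of 0.05 after rounding by limma. In Zfp949 and Zfp46 the unstimulated pair ran the other way, with 5.19 and 5.43 FPKM for Zfp949 and 3.56 and 4.98 for Zfp46. Apart from Zfp52 and Zfp948, which are described without a test, the 5 that kept their call in every alternative were Zfp219, Zfp281, Zfp386, Zfp870 and Zfp809.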

How the data were processed

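RNA sequencing values came from 10 libraries of mouse B cells. The authors deposited 1 table of FPKM per gene, made with STAR 2.4 and RSEM 1.2.14 on mm10, per the submitters' processing notes, from libraries of a stranded mRNA kit, per the labels' protocols. Which annotation and filters were used, and whether counting was stranded, is not given in the sources used here, so overlapping and antisense genes may share reads. FPKM are not counts, so values were transformed to log2(FPKM + 1), a scale that understates the change of low genes. Rows with a mean of at least 1 FPKM (10225) were fitted with limma 3.58.1 in R 4.3.3 (lmFit, eBayes with trend), two-sided, with Benjamini-Hochberg adjustment over all of them. The genotype fit held the 8 stimulated libraries. The stimulation fit held all 10 with genotype as a term, since there was 1 unstimulated library per genotype. The fits were tested on simulated data.

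The Zfp genes, gene lists, comparisons, alternatives and naming rule were chosen with earlier results of these data known. Named are Zfp52 and Zfp948, the 8 largest called rises and falls of each fit, the 6 highest means, the rows next to the minimum, genes near Zfp52 and Nr4a1, and members of 3 role lists.

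Positions and promoters are those of RefSeq for GRCm38.p6, the same assembly as mm10, and all 235 genes were matched, 3 of them under another symbol. Protein classes were read from the longest coding transcript of each gene in GENCODE M21, translated with Biopython 1.88. A finger was counted where cysteines and histidines had the classic spacing, and a KRAB-like sequence was looked for in the first 250 residues. That pattern was found in 48.6% of 619 genes with 2 or more fingers and in 0.114% of 21141 without any. Sharing between copies was measured as the share of 50-base words of a gene's transcripts found in another gene, above 10% in 31 Zfp genes. Older symbols of marker genes were matched through RefSeq. Alternatives covered pseudocount, filter, scaling, variance model, replicate block, call rule and leaving out each library.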

Additional observations from a re-analysis of the deposited data

Results flagged for a closer look

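Among 55 named Zfp genes, 8 of 110 groups of 4 stimulated libraries held a library far from the other 3, where chance gives about 1 in 20, or 5.5. In wild type, Zfp131 was at 38.23 FPKM in library D (others 40.53 to 40.88), Zfp143 at 11.77 in library A (others 10.42 to 10.47), Zfp160 at 9.44 in library B (others 9.09 to 9.13) and Zfp410 at 10.31 in library B (others 11.68 to 11.88). In the libraries labelled knockout, library C stood apart for Zfp445 at 29.77 FPKM (others 32.83 to 33.09), Zfp609 at 3.53 (others 3.79 to 3.82) and Zfp622 at 29.59 (others 26.86 to 27.31), and library B for Zfp608 at 6.18 (others 5.41 to 5.54).

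In 3 of the 55 named genes all 4 stimulated wild-type libraries lay on one side of their unstimulated library. All 4 labelled knockout lay on the opposite side of theirs. This difference was not tested because each unstimulated group is 1 library, and its share among all tested rows was not counted. The log2 response of Zfp207 was -0.083 in wild type and 0.164 under the knockout label. For Zfp219 it was 0.040 and -0.493, and for Zfp932 it was -0.246 and 0.154.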

How the results depend on the processing

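The count of Zfp genes called between genotypes, 13 with the settings above, was 8 without a filter on level, 5 with a mean of at least 5 FPKM, 8 with the replicate block and 7 to 13 when each library was left out. It was 8 without wild-type library A and 7 without wild-type library C, without labelled-knockout library A or without labelled-knockout library C. Under the other settings it was 10 to 14. The count called with stimulation, 40 above, was 66 with a pseudocount of 0.1, 9 with a pseudocount of 5, 21 with a mean of at least 5 FPKM, where fewer Zfp genes are tested, 22 with quantile normalization and 192 with the adjusted p alone. It was 27 to 45 under the others, 38 to 45 of these when a library was left out and 37 with the replicate block. A larger pseudocount shrinks the log2 change of low genes, so fewer reach the size needed for a stimulation call. Apart from the pseudocount, the filter and the call rule, the cause of these moves was not tested. Same-lettered stimulated libraries of the 2 genotypes did not deviate together (correlations -0.122 to 0.0445), and the replicate block is therefore given as a count. Whether letter A links an unstimulated and a stimulated library of 1 genotype was not tested. Alternatives were run for the 13 Zfp genes called between genotypes and for 9 called with stimulation. None of these changed direction, and 6 genotype calls and 1 stimulation call were lost at least once. Other named genes have no such check. The response within a genotype has no replicate check, since 1 library of each was unstimulated.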
